A study of Mus musculus with 112 samples.

Results

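The comparison set Balbc/J, an albino inbred mouse strain, against 5 other inbred strains in the cerebral cortex of male mice on a control diet. Its members were the 8 Balbc/J control arrays, each from 1 mouse, and 39 control arrays of C3H/HeJ, CBA/J, DBA/2J, 129S1/SvImJ and C57BL6/J, out of 112 arrays in the series. The 5 strains counted equally, with 8 arrays each except C57BL6/J with 7, because C57BL6/J control replicate 6 was left out. The same comparison was repeated on 8 Balbc/J and 40 other arrays from calorie restricted (CR) mice. Per the labels, mice were housed singly, were given 84 kcal per week of a purified diet before the study diets, began the control or CR diet at 8 weeks of age, and by the study's methods were fasted overnight before tissue was collected at 22 weeks. The mice carried no transgene or engineered allele in the labels. By those methods the food allotment of Balbc/J was above that of C3H/HeJ, CBA/J and DBA/2J on either diet, and Balbc/J CR mice were given what control mice of these 3 strains were given. The CR allotment of C57BL6/J and 129S1/SvImJ was cut again during the study. Strain therefore cannot be told apart from food allotment on the control diet, nor from the order in which mice were handled.

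Inbred strains differ at fixed alleles, and a fixed difference in a promoter, an exon or a transposon insertion can alter a transcript in every tissue and every mouse of the strain. Balbc/J is known for anxious and stress-reactive behaviour, for a poorly formed corpus callosum in a share of its animals, and for an insertion in Zhx2, a repressor first mapped through the persistence of fetal liver proteins in adults. Immediate early genes are switched on within minutes of neuronal activity, glucocorticoid targets follow the adrenal stress hormone, and chaperone genes follow unfolded protein in the cytosol or the endoplasmic reticulum. A probe set reads a transcript through fixed sequences, so a strain's base changes under the probes and a strain's transcript level cannot be told apart here.

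Values were log2 array signals of 19938 genes, 1 probe set per gene. The array left out held cerebellar RNA: its 14 cerebellar genes exceeded the rest of the group by a median of 3.74 log2 units, and Tbr1, a transcription factor of deep cortical neurons, differed by -4.39. Among the arrays used, DBA/2J control replicate 8 had a cerebellar gene mean of 8.68, while the other DBA/2J control arrays had 7.11 to 7.48 and Balbc/J control arrays 7.14 to 7.45. Without that array 4872 genes were called in place of 4817, and without 1 CBA/J CR array that was high in the same genes (8.38) 6314 in place of 6384. Excitatory neuron markers, which define the labelled cortex, had list means of 9.67 to 10.20 in Balbc/J control arrays, close to the 9.68 to 10.23 of the other strains. Striatal genes, from the region under the cortex, spread widely in every strain, with list means of 8.56 to 10.36 in Balbc/J control arrays. The number of arrays limits precision, and the median standard error of the Balbc/J difference was 0.05 log2 units.

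Of 19938 genes, 3085 were higher in Balbc/J control cortex (15.5%) and 1732 were lower (8.69%), in all 4817 at an adjusted p under 0.05 (24.2%). Most differences were small: the called genes had a median size of 0.18 log2 units, 130 passed 0.5 and 12 passed 1. Signal quantile-normalized again over these genes gave 2522 higher and 2257 lower, so the share called higher went from 64% to 52.8% and the excess of higher genes depends on that scaling. A stricter set differed from each of the 5 strains on its own, each at an adjusted p under 0.05 and in 1 direction. It held 281 genes higher (1.41%) and 92 lower (0.461%), with a median size of 0.31. In the strictest set the 8 Balbc/J values did not overlap the 39 others at all. It held 14 genes higher (0.0702%) and 10 lower (0.0502%), 24 in all (0.12%).

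Among those 24 genes the largest negative difference was that of Zhx2, the zinc finger and homeobox repressor. Zhx2 signal in the 8 Balbc/J control arrays had a lowest value of 7.22, a median of 7.32 and a highest of 7.54. In the 39 other arrays the values were 8.06, 8.38 and 8.74. Every Balbc/J array lay below every other array, with a gap of over 0.5 log2 units. The difference was -1.03 ± 0.04 (SE, adjusted p = 2.57e-25), a signal of 0.488 times the other strains, and it ran from -0.84 against 129S1/SvImJ to -1.22 against C3H/HeJ. In CR mice it was -1.04 (adjusted p = 1.71e-23). Of 7 measured genes known to respond to Zhx2 in liver, 1 was higher and 1 lower, beside 15.5% and 8.69% of all genes. A link of either to Zhx2 was not tested. Cyp7b1, an oxysterol hydroxylase with brain roles, was higher by 0.25 (adjusted p = 0.000564) and by 0.35 in CR mice. Elovl3, a fatty acid elongase, differed by -0.20 (adjusted p = 0.00843), but by 0.01 in CR mice (adjusted p = 0.878). Alpha-fetoprotein, Afp, had a difference of 0.03 (adjusted p = 0.696), with Balbc/J values of 5.84 to 6.20 inside the 5.51 to 6.22 of the other strains. The glypican Gpc3 (-0.01) and the lipase Lpl (-0.17, adjusted p = 0.238) did not pass the test. H19 was not among the genes analysed.

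**Figure D1:**
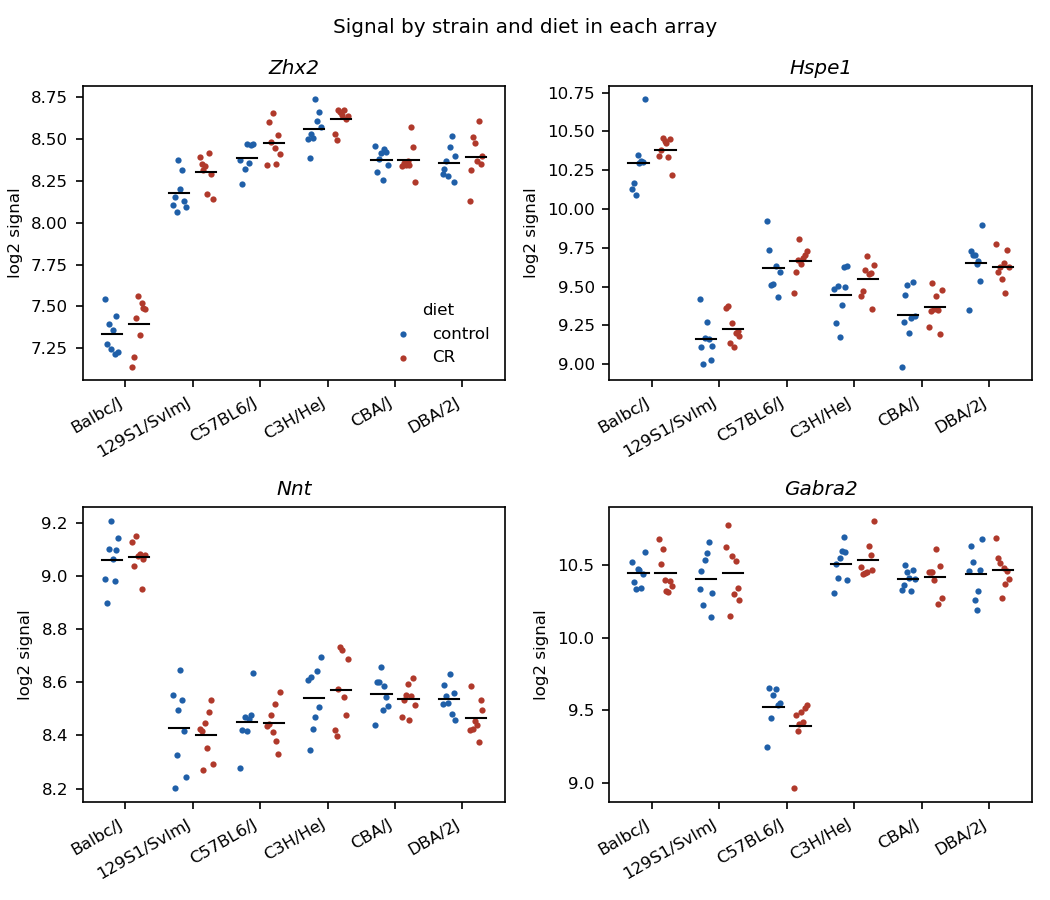
Log2 signal of Zhx2, Hspe1, Nnt and Gabra2 in each array, by strain, with control arrays in blue, CR arrays in red and group means as black lines. Balbc/J stands apart in Zhx2 (7.22 to 7.54 against 8.06 to 8.74 on the control diet), Hspe1 and Nnt in both diets, while in Gabra2 C57BL6/J stands apart and Balbc/J does not.

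The other 9 genes below every other array had various functions. Vmn2r1, of the vomeronasal receptor family, had Balbc/J values of 4.86, 5.07 and 5.25 (lowest, median, highest) against 5.60 to 6.37, a difference of -0.89 (adjusted p = 8.49e-16) at a low signal. Phkg1, a catalytic subunit of phosphorylase kinase, the enzyme that starts glycogen breakdown, had 6.41, 6.48 and 6.61 against 6.72 to 7.45, a difference of -0.64 (adjusted p = 5.06e-16). It was still lower in CR mice, by -0.81. Tsnax, the partner of the RNA-binding nuclease translin, had 8.74, 8.84 and 8.98 against 9.17 to 9.59, a difference of -0.52. Frmd4a, a scaffold of cell polarity, had 7.98, 8.13 and 8.23 against 8.44 to 8.76, a difference of -0.51. Zhx2, Phkg1, Tsnax, Frmd4a and Rccd1 were also without overlap in CR mice. The remaining genes were the thioesterase-like Lyplal1 (-0.49), the persephin receptor Gfra4 (-0.42), Rccd1 (-0.41), the TGF-beta binding protein Ltbp4 (-0.36) and the Krüppel-like factor Klf7 (-0.26). Klf7, at 9.19 to 9.41 against 9.45 to 9.77, was the smallest of them, and Klf7 and Ltbp4 were the only 2 of the 22 genes named by rule for size and lack of overlap that lost their call under any alternative run, each when tested against a 1.2-fold change.

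Among the 14 genes above every other array, Hspe1, the small subunit of the mitochondrial chaperonin, had Balbc/J values of 10.09, 10.30 and 10.71 against 8.98, 9.48 and 9.92 in the other strains. The difference was 0.85 ± 0.06 (SE, adjusted p = 5.84e-15), a 1.81-fold signal, and a second probe set of the gene gave 0.99. Rtf2, a factor of stalled replication forks, had 9.88, 9.99 and 10.10 against 8.59 to 9.47, a difference of 0.92 (adjusted p = 4.50e-20). In CR mice the differences were 0.89 for Hspe1 and 0.94 for Rtf2.

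Nnt, the inner membrane enzyme that makes mitochondrial NADPH, had 8.90, 9.08 and 9.21 in Balbc/J against 8.20 to 8.70 in the other strains, a difference of 0.56 (adjusted p = 1.54e-14). C57BL6/J carries a known deletion within Nnt, but its signal (8.28 to 8.64) lay inside that of the other 4 strains, and Balbc/J was higher than each strain by 0.51 to 0.63. Uqcc2, which helps assemble respiratory complex III, had 10.72, 10.88 and 10.96 against 9.98 to 10.69, a difference of 0.52. Tfe3, a transcription factor of lysosome and energy genes, had 9.18, 9.41 and 9.61 against 8.39 to 8.96, a difference of 0.70 (adjusted p = 1.45e-18), and 0.71 in CR mice. Ostm1, the partner of the lysosomal chloride exchanger, was higher by 0.40. Arnt2, a helix-loop-helix partner of neuronal activity factors, had 10.62, 10.90 and 11.16 against 10.04 to 10.54, a difference of 0.61.

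The rest of the 14 included Tlr1, a receptor of bacterial lipopeptides, which had 5.76, 5.97 and 6.08 against 4.86 to 5.43. Its difference was 0.79 (adjusted p = 1.30e-17), at a low signal. Zfp459, a zinc finger gene, was higher by 0.91 and F830045P16Rik by 0.93, with low means of 5.91 and 5.27 in the other strains. Aox1, aldehyde oxidase, was higher by 0.48, but it lies in a family of close copies and its relative Aox4 was higher too (1.01), so the part of each is uncertain. Bcat1, the cytosolic transaminase of branched-chain amino acids, was higher by 0.42. Tpm4 (0.40), a tropomyosin, and Vgll4 (0.38), a cofactor of TEAD factors, fall outside the rule for named genes and were chosen after their values were seen. All 24 genes were called with the same sign in CR mice, and 14 of them were again without overlap there, 9 higher and 5 lower.

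**Figure D2:**
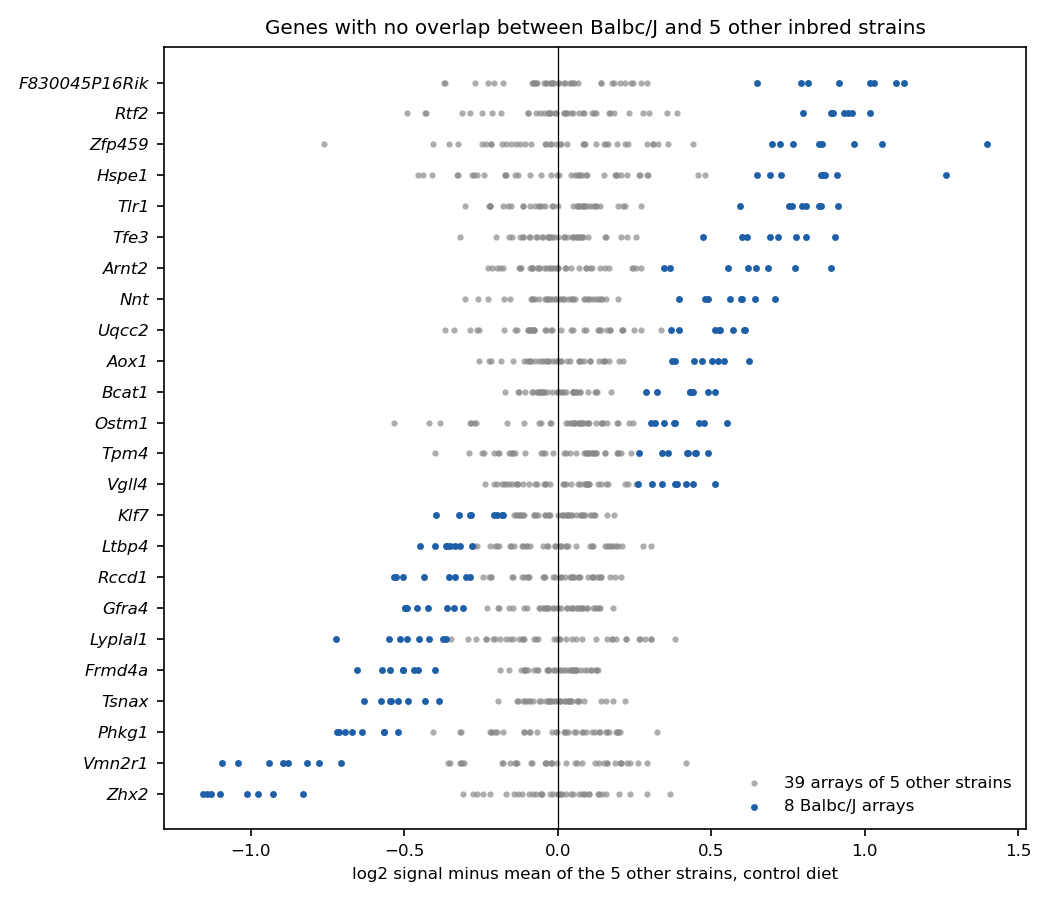
Log2 signal of the 24 genes without overlap in control arrays, each minus the equal-weight mean of the 5 other strains, with 8 Balbc/J arrays in blue and 39 other arrays in grey. Differences run from -1.03 in Zhx2 to 0.93 in F830045P16Rik, and some genes, such as Tpm4 (0.40) and Ltbp4 (-0.36), clear the grey points only narrowly.

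The 12 genes with a difference over 1 log2 unit were mostly others. They are named here after their values were seen. AI506816 was lowest, at -2.03, but DBA/2J carried it at 10.06 to 10.91 and 129S1/SvImJ at 3.01 to 4.36, so Balbc/J (4.05 to 5.27) was not at the end of the strain order. Snord53, a small nucleolar RNA, was higher by 1.67 with 129S1/SvImJ and C57BL6/J at 8.29 to 9.02, while Balbc/J (11.71 to 12.21) overlapped DBA/2J (11.42 to 12.27). Tnfaip6, a hyaluronan-binding protein of inflammation, was higher by 1.14 and overlapped C57BL6/J (7.31 to 8.36 against 7.85 to 8.14). Gm1976 was lower (-1.09). Ccn1 (1.12), Arc (1.05), Hspa1a (1.03), Aox4 (1.01), Nlrp5-ps (1.02), Gm5148 (1.00), 4930578G10Rik (1.19) and Zhx2 (-1.03) made up the rest.

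Immediate early genes were higher in Balbc/J. Of 20 measured, 15 were higher and 0 lower (15.5% of all genes higher), with a median difference of 0.44 against -0.01 over all genes, and 0.29 in CR mice, where 14 were higher. Arc, which carries synaptic activity to the postsynaptic density, had Balbc/J values of 10.16, 10.82 and 10.98 against 8.28, 9.78 and 10.61 in the other strains. Its difference was 1.05 ± 0.18 (SE, adjusted p = 1.31e-05), with overlap. Fos, the activity-regulated subunit of AP-1, had 7.20, 7.91 and 8.57 against 6.27, 7.12 and 7.91, a difference of 0.87 ± 0.12 (SE, adjusted p = 4.35e-07). Its partners were also higher, Fosb by 0.58 (adjusted p = 1.33e-08), Fosl2 by 0.46 and Jun by 0.44, and these 4 AP-1 genes were the members that differed from each strain. Further members higher were Egr2 (0.79), Npas4 (0.69), Nr4a1 (0.69) and Nr4a3 (0.57), all transcription factors of the activity response. Egr1, at 0.20, did not pass the test. Ccn1, a secreted matrix protein of the same kind of rapid response, was outside the list and had 7.80, 8.56 and 9.84 against 6.97 to 8.64 (difference 1.12, adjusted p = 6.02e-08).

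Balbc/J overlapped each strain except C57BL6/J in the list mean of control arrays. It lay at 8.90 to 9.46 in Balbc/J control arrays, 8.92 to 9.26 in CBA/J, 8.43 to 9.25 in 129S1/SvImJ, 8.45 to 9.05 in C3H/HeJ, 8.29 to 9.05 in DBA/2J and 8.46 to 8.83 in C57BL6/J. The CBA/J control arrays were thus nearly as high, while CBA/J CR arrays lay at 8.60 to 8.86. Against mice given the same food, Balbc/J CR against C3H/HeJ, CBA/J and DBA/2J control, 10 of the 20 genes were higher. With the highest and the lowest Balbc/J control array in this list mean both left out, 15 were still called.

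**Figure D3:**
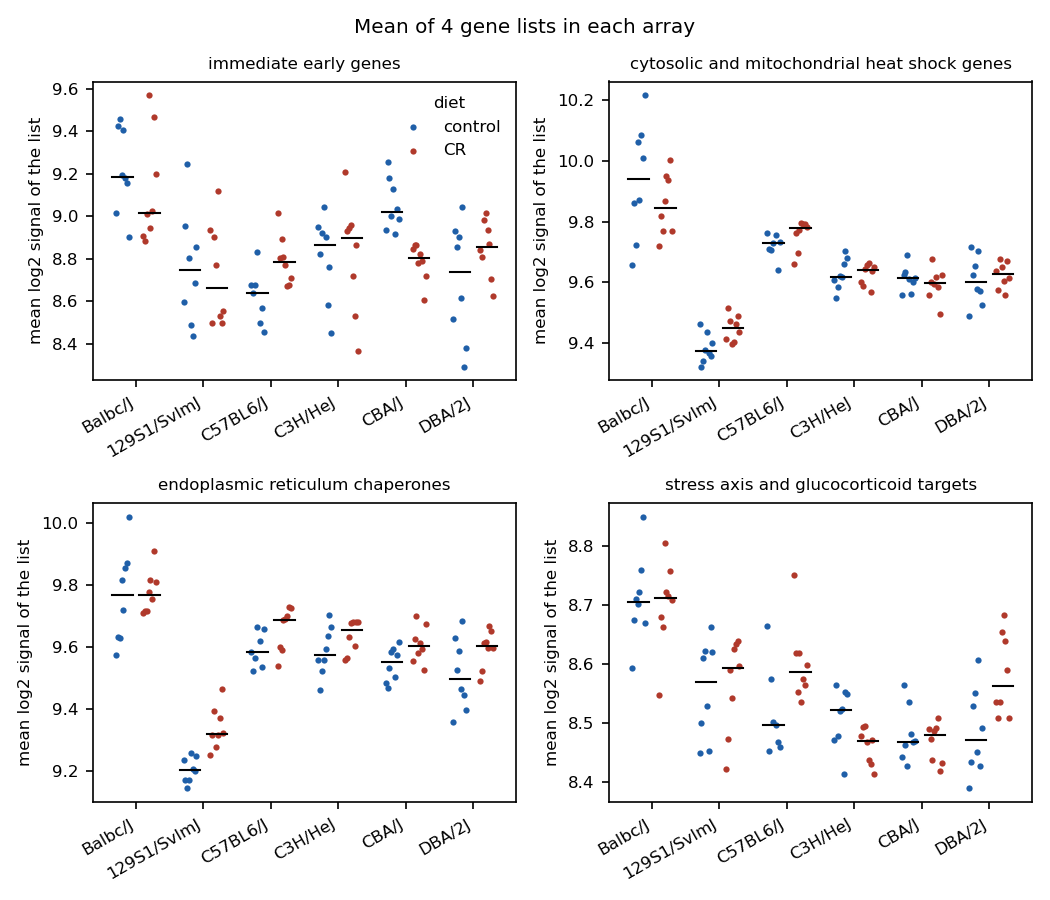
Mean log2 signal of 4 gene lists in each array, by strain, with control arrays in blue, CR arrays in red and group medians as black lines. Balbc/J has the highest median in all 4 panels and both diets, and 129S1/SvImJ is lowest in both chaperone lists (9.15 to 9.26 in the endoplasmic reticulum list on the control diet).

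Chaperone genes of the endoplasmic reticulum were higher almost without exception. Of 20 measured, 19 were higher and 0 lower (15.5% and 8.69% of all genes), with a median difference of 0.27. In CR mice 16 were higher (19.6% of all genes), with a median of 0.19. Hspa5, the BiP chaperone that holds unfolded protein in the lumen, had Balbc/J values of 10.70, 11.15 and 11.46 against 9.98, 10.73 and 11.05 in the other strains, a difference of 0.42 ± 0.07 (SE, adjusted p = 7.49e-06). Creld2, a disulfide isomerase induced with it, had 8.95, 9.22 and 9.62 against 8.10 to 9.26, a difference of 0.45 (adjusted p = 1.61e-07). Herpud1, of the degradation machinery, had 9.93, 10.16 and 10.28 against 9.31 to 10.11, a difference of 0.41. The co-chaperones Sdf2l1 (0.54) and Dnajb11 (0.45) and the isomerases Pdia4 (0.39), Pdia3 (0.39) and Pdia6 (0.35) were higher as well. Xbp1, the transcription factor of this response, was higher by 0.25 but by 0.02 in CR mice, and Dnajb9 did not pass the test (-0.05 in CR mice). The list mean lay at 9.57 to 10.02 in Balbc/J and, lowest of the strains, at 9.15 to 9.26 in 129S1/SvImJ. Without 129S1/SvImJ 16 members were called higher, beside 2240 of all 19938 genes. Against the food-matched controls 15 were, beside 15.8% of all genes.

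Promoters of some of these genes hold a known element, the endoplasmic reticulum stress element. NF-Y binds it at its CCAAT end and ATF6 at its CCACG end. The letters CCAAT and CCACG with 9 bases between them were searched on both strands in windows of 300 bases, 250 before to 50 after each start in RefSeq (GRCm38.p6). They occurred in 7 of the 18 list genes with a window, and in 0.137% of 27025 genes. The windows of these 7 are shown because so small a share of all promoters holds the element, which stands in capitals, also where it runs on the other strand and begins with CGTGG. The reference sequence is that of C57BL6/J, so it shows the element and not the Balbc/J allele. The matching parts were:
Hspa5, chr2:34772005-34772063, + strand: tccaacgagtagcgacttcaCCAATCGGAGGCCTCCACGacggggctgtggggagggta
Creld2, chr15:88819500-88819558, + strand: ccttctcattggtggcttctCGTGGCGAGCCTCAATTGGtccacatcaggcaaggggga
Pdia6, chr12:17266471-17266529, + strand: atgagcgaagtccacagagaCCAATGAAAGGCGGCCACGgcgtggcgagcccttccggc
Dnajc3, chr14:118937807-118937865, + strand: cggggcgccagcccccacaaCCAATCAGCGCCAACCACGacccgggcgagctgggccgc
Calr, chr8:84847055-84847113, - strand: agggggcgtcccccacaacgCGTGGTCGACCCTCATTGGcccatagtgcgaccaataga
Canx, chr11:50325780-50325838, - strand: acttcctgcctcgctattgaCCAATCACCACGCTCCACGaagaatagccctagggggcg
Hsp90b1, chr10:86705513-86705676, - strand: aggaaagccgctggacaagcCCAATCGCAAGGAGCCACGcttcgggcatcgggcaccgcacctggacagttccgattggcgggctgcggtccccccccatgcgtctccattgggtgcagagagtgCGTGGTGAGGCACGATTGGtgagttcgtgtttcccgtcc

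Hsp90b1 held 2 copies in opposite orientation, and the others 1. All 7 genes were higher in Balbc/J, as were 19 of the 20 measured members of the list. The differences were 0.42 in Hspa5, 0.45 in Creld2, 0.35 in Pdia6, 0.34 in Dnajc3, 0.19 in Calr, 0.11 in Canx and 0.13 in Hsp90b1. Members without these letters in the window differed by as much, such as Sdf2l1 (0.54) and Dnajb11 (0.45). No such letters occurred in the windows of 17 heat shock genes, 15 immediate early genes or 19 glucocorticoid list genes.

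Heat shock genes of the cytosol and mitochondria were higher too. This list was put together after values were seen, so its count is a description and no test. Of 20 measured, 18 were higher and 0 lower on the control diet (15.5% and 8.69% of all genes), with a median of 0.26. In CR mice 16 were higher and 1, Hspb8 (-0.22), lower (19.6% and 12.5% of all genes). Hspa1a, the inducible Hsp70, had Balbc/J values of 8.03, 9.06 and 9.89 against 7.79, 8.03 and 8.63 in the other strains. Its difference was 1.03 ± 0.11 (SE, adjusted p = 8.18e-10), and the widest spread was within Balbc/J. In CR mice it was 0.56. Hspa1a has a nearly identical neighbour gene, so its signal may hold both. Dnajb1, an Hsp40 co-chaperone, had 8.78, 9.49 and 9.73 against 8.08 to 8.95 (difference 0.74, adjusted p = 1.65e-11). Hspb1, a small heat shock protein, was higher by 0.71 and by 0.31 in CR mice, and by 0.17 against the food-matched controls (adjusted p = 0.230). Hsph1 (0.43), Hspd1 (0.35), Chordc1 (0.34) and Hsp90aa1 (0.26) were higher in the same way. Without 129S1/SvImJ 14 members were called. On the control diet 7 of the 20 differed from each strain, and the list mean of Balbc/J overlapped each strain except 129S1/SvImJ.

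Hspe1 and Hspd1, the subunits of the mitochondrial chaperonin, are divergent neighbours that share 1 promoter. Heat shock factors bind inverted repeats of GAA. The letters GAA, TTC and GAA with 2 bases between each, on both strands, occurred in 4 of the 17 list genes with a window and in 0.662% of all genes. In this shared promoter 2 overlapping copies lay before both starts, in capitals here, and it is shown on both strands because Hspe1 was without overlap.
Hspe1, chr1:55088039-55088096, + strand: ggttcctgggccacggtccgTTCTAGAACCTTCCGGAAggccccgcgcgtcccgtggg
Hspd1, chr1:55088039-55088096, - strand: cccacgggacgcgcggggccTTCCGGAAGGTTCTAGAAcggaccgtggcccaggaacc

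Both subunits were higher, but by unlike amounts. Hspd1 had Balbc/J values of 9.67, 10.13 and 10.37 against 9.30 to 10.10, a difference of 0.35 with overlap, and 0.40 in its second probe set. Hspe1 differed by 0.85 and 0.99 in its 2 probe sets. The difference between the 2 genes was not tested, and base changes under the probes cannot be told apart from level.

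Targets of the glucocorticoid receptor and genes of the stress axis came next. Of 23 measured, 13 were higher and 1 lower (15.5% and 8.69% of all genes), with a median of 0.17. In CR mice 12 were higher and 1 lower with a median of 0.16. Tsc22d3, the glucocorticoid-induced leucine zipper, had Balbc/J values of 7.82, 8.38 and 8.61 against 7.34, 7.63 and 7.97, a difference of 0.68 ± 0.07 (SE, adjusted p = 2.12e-10). Nfkbia, the inhibitor of NF-kappaB, had 8.43, 8.97 and 9.21 against 7.91 to 8.57, a difference of 0.60. Pdk4, which spares glucose by closing pyruvate dehydrogenase, was higher by 0.60 (8.51 to 9.44 against 7.71 to 8.75). Fkbp5, which damps the receptor itself, had 8.02, 8.29 and 8.71 against 7.59 to 8.34, a difference of 0.40 (adjusted p = 5.14e-06). Klf9 (0.40), Sgk1 (0.41), Per1 (0.33) and the metallothionein Mt1 (0.26) were also higher. The 1 gene lower was Hsd11b1, the enzyme that regenerates active corticosterone in the cell, at 6.60, 6.73 and 6.96 against 6.45 to 7.68, a difference of -0.49 (adjusted p = 2.35e-07) and -0.45 in CR mice. The receptors Nr3c1 (-0.03) and Nr3c2 (-0.06) did not pass the test. Crh, the releasing hormone, was higher by 0.17 and by 0.31 in CR mice. On the control diet 3 of the 23 members differed from each strain. Klf9 (0.11, adjusted p = 0.201), Fkbp5 (0.20, adjusted p = 0.0891) and Crh (-0.04, adjusted p = 0.663) did not pass the test against C57BL6/J alone. Against the food-matched controls 11 members were higher and 1 lower. Genes of this list that also stand in another list described here include Dusp1, Per1, Pdk4 and Crh, so the list counts are not independent.

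**Figure D4:**
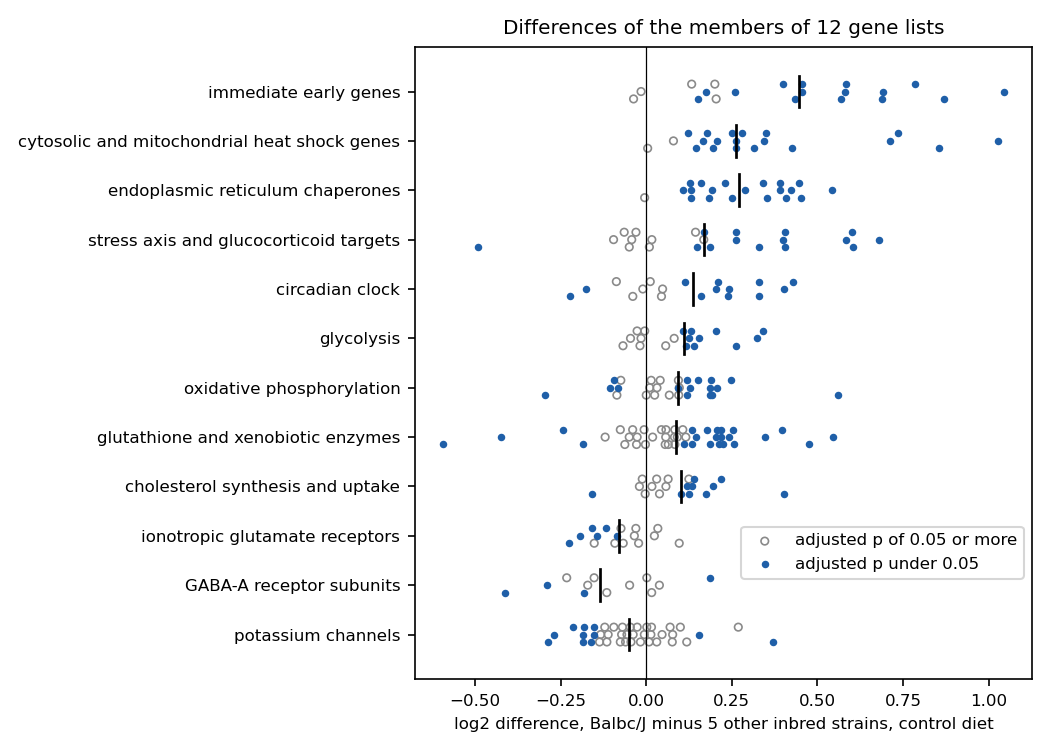
Log2 difference of Balbc/J minus the 5 other strains on the control diet for each measured member of 12 gene lists, filled where the adjusted p was under 0.05, with the list median as a black line. The chaperone and immediate early lists lie almost wholly to the right (19 of 20 endoplasmic reticulum genes called higher), while called glutamate receptor genes lie to the left of 0.

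Among receptor and channel genes, the glutamate receptor list was called in 1 direction and the GABA-A and potassium channel lists in both. Of 16 ionotropic glutamate receptor genes, 0 were higher and 6 lower (8.69% of all genes lower), with a median of -0.08 in both diets. Grin2b, an NMDA receptor subunit, had Balbc/J values of 10.91, 11.01 and 11.08 against 10.98, 11.22 and 11.36, a difference of -0.19 (adjusted p = 1.83e-06), and it differed from each strain. The AMPA subunits Gria3 (-0.16) and Gria2 (-0.14) and the kainate subunits Grik2 (-0.23) and Grik3 (-0.12) were lower as well, as was the delta subunit Grid1 (-0.09). With the cerebellar array kept in, 2 of the 6 calls were left, and Grin2b, Gria3, Gabrg3 and Gabra5 were among the genes no longer called. Of 12 GABA-A receptor subunits 3 were lower and 1, Gabra2, higher, and in CR mice 3 were lower and 3 higher. Gabrb1 had 10.05, 10.23 and 10.36 against 10.28 to 10.91, a difference of -0.41 (adjusted p = 1.12e-10), and in CR mice it was without overlap at -0.53. Gabrg3 (-0.29) and Gabra5 (-0.18) were the others lower. Of 40 potassium channel genes 2 were higher and 9 lower, but in CR mice 4 were higher and 6 lower (19.6% and 12.5% of all genes), with a median of -0.01, and 3 were lower in both diets. The astrocyte channel Kcnj10 was higher by 0.37 and the beta subunit Kcnab2 by 0.15, and the leak channel Kcnk9 was lower, at -0.27. Of 9 excitatory neuron markers 0 were called in either direction, while striatal genes had a median of -0.30 with 1 of 11 called lower. Drd2, the striatal dopamine receptor, had 7.88, 9.52 and 10.54 in Balbc/J against 7.84 to 11.44 (difference -0.76, adjusted p = 0.0560). The part of the striatal genes in these differences was not tested.

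Genes of energy supply were higher than the mean of the 5 strains by small amounts (15.5% of all genes higher), with C57BL6/J close to Balbc/J or above it in the glycolysis, oxidative phosphorylation and cholesterol list means. Of 18 glycolysis genes 10 were higher and 0 lower, with a median of 0.11 in both diets. Slc2a1, the glucose transporter of the blood-brain barrier and astrocytes, had 10.99, 11.12 and 11.34 against 10.57 to 11.08, a difference of 0.32 (adjusted p = 1.72e-07). Pfkfb3, which raises glycolytic flux, was higher by 0.34, Pgam1 by 0.26 and Ldha by 0.20. Of 28 oxidative phosphorylation genes 12 were higher and 4 lower, among them Nnt, Cox6a1 (0.25) and, lower, Sdhc (-0.30). Of 21 insulin and fasting genes 9 were higher and 1 lower. Igfbp3, a binding protein of insulin-like growth factors, had 7.79, 8.06 and 8.35 against 7.22 to 7.80 (difference 0.56, adjusted p = 1.92e-11). Of 19 cholesterol synthesis genes 9 were higher and 1 lower, with Idi1 at 0.40 and, lower, Hmgcs1 at -0.16. The median list mean of the glycolysis genes was 10.75 in Balbc/J, 10.74 in C57BL6/J and, lowest of the strains, 10.47 in 129S1/SvImJ. That of the oxidative phosphorylation genes was 10.22 in Balbc/J, 10.24 in C57BL6/J and 9.95 in 129S1/SvImJ. That of the cholesterol genes was 8.98 in Balbc/J, 9.06 in C57BL6/J and 8.79 in 129S1/SvImJ. Against C57BL6/J alone neither Ldha (-0.04, adjusted p = 0.519) nor Cox6a1 (adjusted p = 0.962) passed the test.

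Circadian genes were higher on the control diet in 10 of 18 cases and lower in 2, beside 15.5% and 8.69% of all genes. Per2, a clock repressor, had 9.13, 9.31 and 9.52 against 8.36 to 9.37 (difference 0.43, adjusted p = 4.09e-05), Bhlhe41 was higher by 0.33, Cry1 by 0.24 and Nr1d2 by 0.24. In CR mice 4 were higher and 2 lower, near the shares of all genes (19.6% and 12.5%). Per2 was at 0.07 there (adjusted p = 0.210) and Bhlhe41 at 0.09. Against the food-matched controls 2 were higher and 2 lower, beside 15.8% and 11.6% of all genes. Whether the difference depended on diet was tested for each gene, and 0 of all genes passed. The hour at which each mouse was killed is not given in the sources used here.

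Detoxifying enzymes differed in both directions. Of 44 glutathione and xenobiotic genes 19 were higher and 4 lower, beside 15.5% and 8.69% of all genes. Akr1c14, a hydroxysteroid dehydrogenase that makes neurosteroids, was higher by 0.54 (5.77 to 6.23 against 4.92 to 6.04), and the glutathione genes Gsr (0.24), Gclm (0.22) and Gss (0.20) and the haem oxygenase Hmox1 (0.35) were higher. Aldh1a1, a retinal dehydrogenase, was lower at -0.59 (adjusted p = 8.68e-08), Glo1, which clears methylglyoxal, at -0.43 (adjusted p = 2.17e-10) and Cyp2d22 at -0.24. Glo1 values of 9.17 to 9.58 in Balbc/J met those of C57BL6/J at 9.30 to 9.64, against which the difference was -0.05 (adjusted p = 0.580). Balbc/J was lower than 129S1/SvImJ by a difference of -0.28 (adjusted p = 6.54e-05). C3H/HeJ, CBA/J and DBA/2J, strains known to carry a duplication of Glo1, lay at 9.84 to 10.26, and the differences from them ran from -0.57 to -0.63.

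Immune genes did not share 1 direction. Of 37 interferon-stimulated genes 4 were higher and 6 lower, beside 15.5% and 8.69% of all genes. Ifit3 had Balbc/J values of 6.47, 6.65 and 7.10 against 6.84, 7.42 and 7.82, a difference of -0.66 (adjusted p = 1.75e-09) and -0.95 in CR mice. Ifit1 had 5.93 to 6.60 against 6.36 to 7.42, a difference of -0.56. Both encode antiviral proteins that bind foreign RNA, and Ifit3 has a close copy, Ifit3b (0.25, not called), with which it may share signal. Xaf1 was lower at -0.43, while Irf9 (0.24) and Stat2 (0.17), subunits of the factor that drives such genes, were higher. Of 17 class I antigen genes 3 were higher and 1 lower, near the shares of all genes (15.5% and 8.69%), with H60b, a ligand of natural killer cells, at 0.52. Of 10 class II genes only H2-Ea passed (0.48). Since the strains differ in major histocompatibility haplotype, base changes under those probes cannot be told apart from level.

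Of 14 astrocyte markers 6 were higher and 1 lower, beside 15.5% and 8.69% of all genes. Gfap, the filament of reactive and white matter astrocytes, had Balbc/J values of 8.89, 9.31 and 9.53 against 7.68, 8.43 and 8.93, a difference of 0.86 ± 0.07 (SE, adjusted p = 9.38e-13) and 0.60 in CR mice. The connexin Gjb6 (0.50) and the folate enzyme Aldh1l1 (0.33) were higher, and S1pr1 was lower (-0.18). The astrocyte list mean, 10.11 to 10.25 in Balbc/J, lay within the 10.10 to 10.27 of C57BL6/J. Of 13 microglia markers 5 were higher, among them C1qb (0.33) and Trem2 (0.22), and 1, Cx3cr1, was lower (-0.09). C1qb did not pass the test against C57BL6/J alone (0.08, adjusted p = 0.416), and the median of the microglia list mean was 8.07 in Balbc/J and 8.19 in C57BL6/J. Of 14 oligodendrocyte and myelin genes 3 were higher, near the 15.5% of all genes, Ermn (0.48), Mobp (0.36) and Mbp (0.22), and Opalin was lower (-0.30, adjusted p = 0.0491, not called without some single arrays or strains), while in CR mice 1 was higher and 4 lower. The median of this list mean was 9.37 in Balbc/J and 9.67 in C57BL6/J. In bulk cortex more cells of a type and more RNA per cell cannot be told apart.

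The counts of the remaining lists stand beside 15.5% of all genes higher and 8.69% lower. Higher and lower were 5 and 0 of 21 complement genes, 2 and 2 of 20 serotonin genes, 0 and 1 of 13 dopamine and noradrenaline genes, 4 and 2 of 31 neuropeptide genes, 2 and 4 of 38 axon guidance and callosal genes, and 2 and 2 of 30 synaptic vesicle genes. The serotonin receptors Htr5b (0.37) and Htr5a (0.22) were higher and the dopamine receptor Drd5 lower (-0.38). Dcc, a netrin receptor needed to form the callosum, was lower at -0.27 (adjusted p = 0.00489), and the peptide Cck was higher by 0.25, neither of which was called with the cerebellar array kept in. Among cell type and region markers, 1 and 0 of 10 upper layer genes, 0 and 0 of 12 deep layer genes, 2 and 0 of 15 interneuron genes, 1 and 1 of 9 oligodendrocyte precursor genes, 1 and 1 of 10 endothelial genes, 2 and 0 of 11 mural genes, 0 and 0 of 10 meningeal genes, 1 and 0 of 4 erythrocyte genes, 0 and 0 of 14 cerebellar genes, 0 and 0 of 12 hippocampal genes, 0 and 1 of 11 thalamic and hypothalamic genes and 1 and 0 of 9 olfactory bulb genes were called. The erythrocyte gene called was Alas2, the haem enzyme of red cells, at 0.43 and 0.12 in CR mice. Choroid plexus genes had 0 of 10 called and a median of -0.11, and Ttr, their main transcript, ranged from 7.88 to 12.97 within Balbc/J (difference -1.17, adjusted p = 0.0687).

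Of 25 genes with a reported strain allele 5 were higher and 3 lower, near the shares of all genes (15.5% and 8.69%). Gabra2 was called higher by 0.19 (adjusted p = 0.00604), but C57BL6/J, which carries a known deletion that lowers it, lay at 9.25 to 9.65, and Balbc/J at 10.34 to 10.58 did not pass the test against any of the other 4 strains. Without 129S1/SvImJ and C57BL6/J the difference was -0.01. Alad, of haem synthesis, was higher by 0.57 and passed the test against each strain, by 0.15 against DBA/2J to 1.14 against C57BL6/J, with Balbc/J at 10.46 to 10.75, CBA/J at 10.40 to 10.56 and C57BL6/J at 9.35 to 9.76. Fv1, a retroviral restriction gene, was lower at -0.76, with differences from 4 strains of -0.57 to -1.16 that passed the test, while C57BL6/J (7.70 to 8.01) overlapped Balbc/J (7.42 to 7.96) and did not pass (-0.16, adjusted p = 0.0868). Pde6b, mutated in C3H/HeJ and CBA/J retinas, was at -0.04 (adjusted p = 0.634).

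The repeat in CR mice gave 3901 genes higher (19.6%) and 2483 lower (12.5%), 6384 in all (32%). Of the 4817 genes called on the control diet, 73.6% were called with the same sign and 0 with the opposite sign, so that 2507 genes were higher in both diets (12.6%) and 1039 lower in both (5.21%). Of the 373 genes that differed from each strain, 354 were called with the same sign in CR mice against the mean of the 5 strains. By the stricter rule that chose them, 195 again differed from each strain with the same sign in CR mice. Without overlap in CR mice were 53 genes (0.266%). The Balbc/J difference was then compared between diets for each gene, and 0 passed (0%), with a smallest adjusted p of 0.0813 and 1254 genes at an unadjusted p under 0.05. With array weights 9 genes passed. Scarna13, a small RNA of Cajal bodies, was the 1 gene of the 373 that changed sign, from 0.61 to -0.40 (adjusted p for the change 0.0813), and was chosen after its values were seen.

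**Figure D5:**
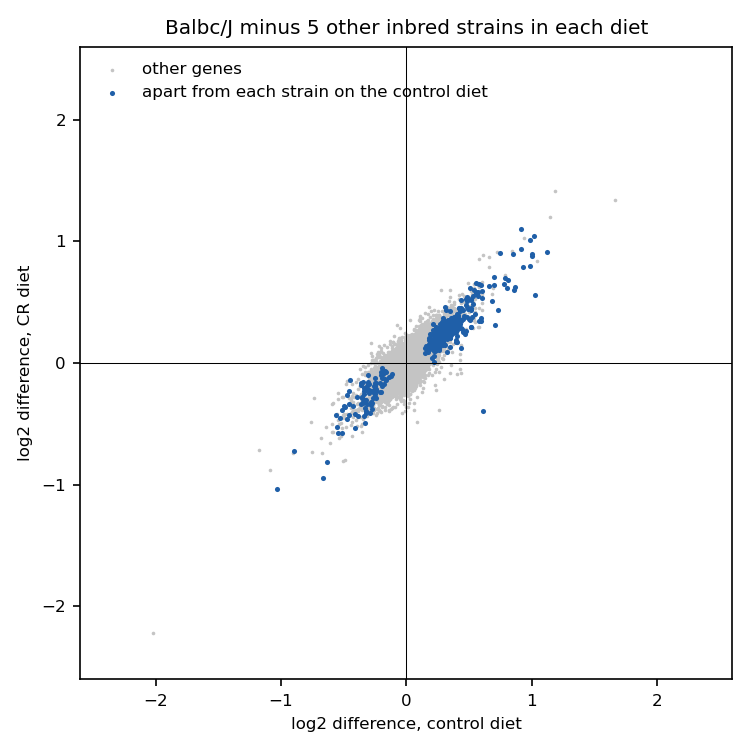
Log2 difference of Balbc/J minus the 5 other strains on the CR diet against that on the control diet for 19938 genes, with the 373 genes that differed from each strain on the control diet in blue. The blue points follow the diagonal except Scarna13 at 0.61 and -0.40, and AI506816 lies lowest at -2.03 and -2.22.

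Against mice on the same food allotment, Balbc/J CR mice had 3155 genes higher (15.8%) and 2317 lower (11.6%) than C3H/HeJ, CBA/J and DBA/2J control mice. Of the 373 genes, 340 were called with the same sign, and so were all 24 without overlap. The called genes described so far that did not pass against these mice were Snord53, Hspb1, Hsp90b1, Xbp1, Npas4, Nr4a3, Dusp1, Per1, Per2, Bhlhe41, Mobp, Mbp, Trem2, Cx3cr1, S1pr1, H2-Ea, Alas2, Drd5, Gabra2, Gria2, Grid1, Pgam1, Hmgcs1, Gsr, Elovl3 and Scarna13. The food-matched mice differ in the diet they were assigned, so this contrast shares the Balbc/J CR arrays with the repeat and the control arrays of 3 strains with the first comparison.

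Balbc/J was further from some strains than from others. On the control diet 8970 genes differed from 129S1/SvImJ, 5005 from C57BL6/J with 7 arrays, 4496 from CBA/J, 3770 from DBA/2J and 2966 from C3H/HeJ. Set against the mean of the other 5, Balbc/J with its 4817 genes and 24 without overlap lay near CBA/J (4756 and 16). 129S1/SvImJ (9714 and 216) and C57BL6/J (10573 and 240) gave more, and DBA/2J (2321 and 35) and C3H/HeJ (2076 and 19) fewer genes called. These contrasts share arrays and are given side by side.

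Some genes that differed from each strain are neighbours in the gene order of RefSeq. The 373 genes held 11 runs of adjacent tested genes with 23 members, and 10 runs had 1 direction. Nnt stood beside Paip1, a translation factor partner (0.59), and Phkg1 beside Sumf2, a sulfatase modifier (-0.16). Adat1 (0.42), Kars (0.40) and Terf2ip (0.31) formed the 1 run of 3, and Lacc1 (-0.55) and Ccdc122 (-0.47) a run of lower genes. Mill2 (-0.24) and Pglyrp1 (0.70) were adjacent with opposite signs.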

How the data were processed

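Cortex RNA of 1 mouse per array was read on Affymetrix Gene 1.0 ST arrays. The deposited values are log2 signal, which the authors obtained with Affymetrix Expression Console and RMA (background correction, quantile normalization, summary per probe set). Their versions and the genome build were not stated in what was read here, and RMA hides any change common to a whole array.

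Of 35556 probe sets, 21789 had exactly 1 symbol in the platform annotation. Where a gene had several (999 genes) the one of highest mean was kept, giving 19938 genes with no filter on low signal. Group means of 47 control arrays of 6 inbred strains, and separately of 48 CR arrays, were fitted with limma (version 3.58.1, R 4.3.3, lmFit and eBayes, 41 residual degrees of freedom on the control diet). Contrasts were the Balbc/J mean minus the equal-weight mean of the other 5, Balbc/J against each strain, and the difference between diets. P-values were two-sided, with Benjamini-Hochberg adjustment over all genes and calls at an adjusted p under 0.05. No source ties mice to litters or days, so p-values measure the spread between these mice. In simulated data 50 of 67 genes planted at 0.25 log2 units and 67 of 67 at 0.5 were recovered, with 13 false calls. The simulated noise was independent between genes and arrays, with no differences among the other 5 strains and no admixed tissue. These figures therefore do not give the error rate in the real arrays.

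Genes were named by rule: the 12 highest and 12 lowest called in both diets without overlap, up to 4 per list, and 7 alleles or linked genes. Members, lists and tests were chosen with earlier results of these data known. Alternatives varied the samples, strains, normalization, weights, test and food.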

Additional observations from a re-analysis of the deposited data

Results flagged for a closer look

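In 14 of 288 groups of 8 arrays tested, over the named genes in Balbc/J mice, 1 array stood apart from the other 7 by Dixon's gap test, and chance alone flags about 1 group in 20. On the control diet these were Hspe1 in replicate 8 (10.71, next 10.35), Gjb6 in replicate 1 (8.89, next 9.31), C1qb in replicate 4 (9.88, next 9.57) and Crh in replicate 2 (5.57, next 5.87).

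In CR mice, replicate 4 stood apart in F830045P16Rik (6.41), Tfe3 (9.51) and Ccn1 (9.57, next 8.67). The others in CR mice were Rccd1 in replicate 5 (7.22), Kcnq3 in replicate 5 (10.22), Dlx1 in replicate 6 (9.26, next 8.78), Htr1f in replicate 6 (7.97), Olig2 in replicate 1 (7.83), Snord53 in replicate 1 (10.52, next 11.48) and Cry1 in replicate 8 (7.87).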

How the results depend on the processing

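Leaving out 1 Balbc/J control array at a time gave 4184 to 5295 called genes against 4817, with 13 to 16 immediate early genes, 15 to 19 heat shock genes, 17 to 19 endoplasmic reticulum chaperones and 11 to 14 glucocorticoid list genes higher, and 4 to 6 glutamate receptor genes lower. A test against a 1.2-fold change left 132 genes in all, 3 immediate early, 4 heat shock, 0 endoplasmic reticulum, 3 glucocorticoid list and 0 glutamate receptor genes. With the cerebellar array kept in, 2 glutamate receptor genes were called lower. The methods' t-test gave 2610 genes after Benjamini-Hochberg adjustment and 3012 at the methods' own threshold. Array weights gave 9 genes for the dependence on diet, where the unweighted fit gave 0. Against the food-matched controls 4 named genes called on the control diet changed sign, namely Gabra2 (-0.00508), S1pr1 (0.0375), Cldn5 (0.112) and Cd59a (-0.0794). Without 129S1/SvImJ and C57BL6/J, Gabra2 (-0.00848) and Cd59a (-0.00130) of the called genes changed sign, and the contrast of Balbc/J with C3H/HeJ, CBA/J and DBA/2J control mice gave the same values. Of 138 called named genes, 50 lost their call in some alternative other than the 1.2-fold test, 27 of them against the food-matched controls, 20 with the cerebellar array kept in, 14 without 129S1/SvImJ and 11 without 1 Balbc/J array. The cause was not tested.

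Replicate numbers did not pair mice across strains: same-numbered arrays had a mean correlation of 0.00955 (-0.427 to 0.531) over 115 pairs, and 10 of 47 matched best with their own number. With the replicate number as a block 4777 genes were called on the control diet and 6508 in CR mice. The list counts under each alternative, those without 2 Balbc/J arrays, and the contrast without 129S1/SvImJ and C57BL6/J together were chosen after seeing the data.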
